A study of Homo sapiens with 15 samples.

Results

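The 31 genes described here encode the enzymes of cholesterol synthesis, the proteins that set the activity of that pathway, and the enzymes of fatty acid synthesis. They were found by symbol in 2 deposited gene count tables of 62700 rows each, and every symbol matched 1 row. They comprise 18 sterol synthesis genes, 8 fatty acid synthesis genes, and 5 regulators and carriers (INSIG1, SREBF1, SREBF2, SCAP and STARD4). All 31 passed the filter on low counts in both tables.

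All 15 libraries came from 143B, an established human osteosarcoma cell line, with 3 libraries in each of 5 conditions. Non-OSCs were wild-type cells kept as adherent cultures in DMEM with serum, and OSCs (osteosarcoma stem cells) were wild-type cells grown as spheres in tumorsphere medium, a DMEM/F12 medium with B27, EGF and basic FGF and no serum. The other 3 conditions carried a lentiviral short hairpin RNA and were grown under sphere conditions: shCtrl with a control hairpin, and shPDK1#1 and shPDK1#2 with 2 different hairpins against PDK1, a kinase that inhibits pyruvate dehydrogenase. In the OSC comparison, stemness, medium, serum and culture format change together and cannot be told apart. Nothing in the labels says that the 3 libraries of a condition came from separate cultures, so p-values measure the spread between these libraries only.

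Cells make cholesterol from acetyl-CoA through mevalonate, squalene and lanosterol, and make fatty acids from the same acetyl-CoA through malonyl-CoA. The transcription factors SREBP1 (SREBF1) and SREBP2 (SREBF2) are held in the endoplasmic reticulum with their escort SCAP by INSIG proteins when sterols are plentiful. When sterols fall, SCAP carries them to the Golgi, where proteases release the part that enters the nucleus and turns on these genes, INSIG1 included. Tumour cells often run this synthesis at a high rate for membranes and signalling lipids.

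Stretches of the promoters of the genes on which the results turn are shown first. SREBPs are known to act at promoters together with the factors NF-Y and SP1. The sequences are from RefSeq on GRCh38.p14, read 5′ to 3′ on the strand of the gene, from windows of 250 bases before to 50 bases after an annotated start. Capitals mark matches, on either strand, to 4 letter patterns: a sterol regulatory element (TCACNCCAC), an E-box form of it (TCACNTGA), the CCAAT box bound by NF-Y (CCAAT), and the GC box bound by SP1 (GGGCGG). Among the genes with a mean of at least 10 CPM, HMGCS1, SC5D, INSIG1, MVD and STARD4 had the largest changes between OSCs and non-OSCs, and SREBF2 held a match to the sterol regulatory element.
HMGCS1: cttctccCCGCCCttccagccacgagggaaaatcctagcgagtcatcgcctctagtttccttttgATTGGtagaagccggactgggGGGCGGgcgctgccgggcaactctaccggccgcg
SC5D: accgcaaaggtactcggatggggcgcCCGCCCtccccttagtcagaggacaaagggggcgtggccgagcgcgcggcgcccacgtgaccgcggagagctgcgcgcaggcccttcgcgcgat
INSIG1: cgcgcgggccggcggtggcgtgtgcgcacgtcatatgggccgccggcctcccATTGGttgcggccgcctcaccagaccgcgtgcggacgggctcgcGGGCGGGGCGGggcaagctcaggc
INSIG1, E-box form: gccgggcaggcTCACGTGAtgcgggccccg
MVD: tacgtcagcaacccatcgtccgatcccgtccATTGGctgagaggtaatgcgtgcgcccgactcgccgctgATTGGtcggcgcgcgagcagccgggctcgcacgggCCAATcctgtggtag
STARD4: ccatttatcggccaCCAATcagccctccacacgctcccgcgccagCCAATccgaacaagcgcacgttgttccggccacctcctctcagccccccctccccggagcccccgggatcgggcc
SREBF2: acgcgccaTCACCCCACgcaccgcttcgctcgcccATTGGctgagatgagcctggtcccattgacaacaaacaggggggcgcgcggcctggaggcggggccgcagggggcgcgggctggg

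The stretches lie at chr5:43313513-43313632 (minus strand) for HMGCS1, chr11:121292561-121292680 (plus strand) for SC5D, chr7:155297656-155297775 and chr7:155297811-155297840 (plus strand) for INSIG1, chr16:88663162-88663281 (minus strand) for MVD, chr5:111512591-111512710 (minus strand) for STARD4 and chr22:41832964-41833083 (plus strand) for SREBF2. The match to TCACNCCAC in SREBF2 began at position -133 and its CCAAT box at -106, counted from the annotated start. In INSIG1 the CCAAT box began at -170, followed by a pair of overlapping GC boxes at -126 and -121, and the E-box form began at -56. MVD held 3 CCAAT boxes, at -159, -120 and -85, and STARD4 held 2, at -161 and -130. Each stretch took the 120 bases nearest the start, and before it, without a protein-coding exon. That of SREBF2 was moved to take in its match to TCACNCCAC, and the E-box form is shown with 30 bases. Matches outside the stretches included a CCAAT box of SC5D at -56 and GC boxes of MVD at -199 and STARD4 at -52. Another window of HMGCS1, not shown, gave a stretch with 1 GC box and 0 CCAAT boxes.

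Windows were matched for 27 of the 31 genes, and a gene with several windows was counted once if any of them held the pattern. The CCAAT box was found in 21 of the 27 (77.8%), against 39.7% of the 27305 genes with a window. It was present in 13 of 15 sterol synthesis genes, 5 of 7 fatty acid synthesis genes and 3 of 5 regulators, and absent from CYP51A1, ELOVL6, FADS1, PMVK, SCAP and SREBF1. The GC box was found in 26 of the 27 (96.3%), against 48.3% of genes, and only NSDHL lacked it. The sterol regulatory element in the form searched was found in SREBF2 alone (3.70%, against 1.39% of genes), and the E-box form in EBP and INSIG1 (7.41%, against 4.65%). The 27305 genes include genes that did not pass the filter on low counts, whereas all 31 members passed it. Shares over genes that passed the filter, or over genes with as many windows, were not computed. These matches describe letters in the windows, and binding was not measured.

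The libraries held between 7992499 and 11256536 counts, and replicates differed by more than counting noise, so each was kept as a sample. Levels are given as CPM, the count of a gene scaled to a common library total after TMM correction for composition. PDK1, the gene the hairpins target, had 46.7, 44.7 and 44.4 CPM in shCtrl, 29.0, 27.8 and 27.3 CPM in shPDK1#1, and 18.3, 21.5 and 19.6 CPM in shPDK1#2, with no overlap between the 3 conditions. Of the osteoblast and mesenchymal markers, VIM, COL1A1 and SPP1 were abundant in every library and RUNX2 was present, while ALPL and COL1A2 were at or below 3.06 and 1.67 CPM. The defining markers of leukocytes (PTPRC and CD3E) and adipocytes (ADIPOQ, PLIN1 and FABP4) were at or below 0.931 CPM in every library, and those of epithelium (CDH1 and KRT19) and endothelium (VWF and CDH5) at or below 0.441 CPM. EPCAM reached 4.45 and PECAM1 1.85 CPM. CD68 was at 20.2 CPM or more throughout. In bulk RNA, fewer cells of a kind and less RNA per cell cannot be told apart.

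OSCs were first compared with non-OSCs, the contrast of sphere and adherent culture. Sterol and fatty acid synthesis genes were mostly higher in OSCs: 23 of the 31 rose, 2 fell (FDFT1 and SCAP) and 6 did not pass an adjusted p of 0.05 (edgeR's quasi-likelihood test, Benjamini-Hochberg over all 14287 genes tested). Of all genes tested, 32.4% rose and 31.5% fell, so the members' share of rises was above that of all genes and their share of falls below it. Of the 18 sterol synthesis genes 13 rose and 1 fell, with a median log2 fold change of 0.39. Of the 8 fatty acid synthesis genes 6 rose and 0 fell (also 0 at an unadjusted p under 0.05, and by DESeq2, although SCD passed as lower in 1 alternative), with a median of 0.37. The median over all genes tested was -0.01.

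**Figure D1:**
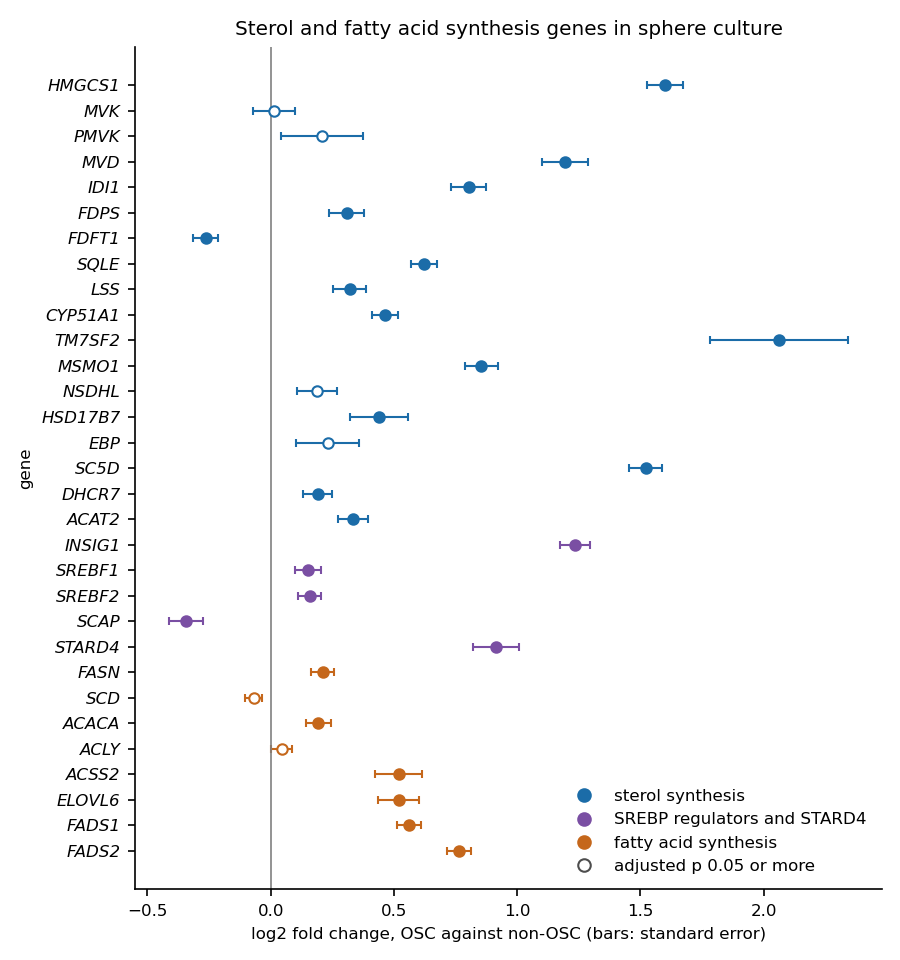
Log2 fold change of each of the 31 genes in OSCs against non-OSCs (x axis, log2 units), coloured by role, with bars for the standard error and open points where the adjusted p was 0.05 or more. Most points lie right of 0, HMGCS1 (1.60) and SC5D (1.52) lie far to the right, TM7SF2 (2.06) has the widest bar, and FDFT1 (-0.26) and SCAP (-0.34) lie to the left.

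The regulators differed among themselves. INSIG1, which retains SREBPs in the endoplasmic reticulum and is itself one of their targets, had 53.0, 53.9 and 54.3 CPM in non-OSCs and 125, 127 and 127 CPM in OSCs. The libraries of each condition lay within a few CPM of each other and the conditions were far apart (log2 fold change 1.23 ± 0.061 SE, 2.35-fold, adjusted p = 1.18e-13 by edgeR). STARD4, a soluble carrier of cholesterol between membranes, had 53.3, 40.0 and 41.3 CPM in non-OSCs and 93.5, 82.6 and 78.5 CPM in OSCs. All OSC libraries were above all non-OSC libraries, with library 1 the highest in both conditions (0.91 ± 0.094, adjusted p = 2.34e-08).

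SCAP, the escort of the SREBPs, moved the other way, with 83.0, 93.5 and 88.0 CPM in non-OSCs and 64.3, 71.3 and 72.7 CPM in OSCs, without overlap (-0.34 ± 0.070, adjusted p = 0.000201). The SREBP genes changed least. SREBF2 had 314, 330 and 337 CPM in non-OSCs and 344, 372 and 378 CPM in OSCs, close together but not overlapping (0.16 ± 0.048, adjusted p = 0.00633). SREBF1 had 240, 275 and 267 CPM in non-OSCs and 274, 295 and 298 CPM in OSCs, and here the conditions overlapped (0.15 ± 0.053, adjusted p = 0.0181). The rise of SREBF1 was lost when non-OSC library 1, OSC library 2 or OSC library 3 was left out, where the adjusted p reached 0.0911 (range over all alternatives 0.000704 to 0.0911).

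Among the sterol synthesis enzymes with a mean of at least 10 CPM, HMGCS1, SC5D and MVD rose most. HMGCS1, the HMG-CoA synthase of the mevalonate pathway, had 69.3, 53.7 and 57.4 CPM in non-OSCs and 188, 181 and 179 CPM in OSCs, 3.03-fold higher and far beyond the spread of either condition (log2 fold change 1.60 ± 0.073, adjusted p = 3.05e-14). SC5D, a sterol desaturase that acts late on the ring system, had 124, 101 and 98.6 CPM against 321, 311 and 297 CPM, 2.87-fold higher and again without overlap (1.52 ± 0.067, adjusted p = 1.72e-14). MVD, the decarboxylase that yields isopentenyl diphosphate, had 26.0, 30.6 and 27.4 CPM against 56.8, 64.5 and 70.7 CPM, with the lowest OSC library well above the highest non-OSC library (1.19 ± 0.093, adjusted p = 2.72e-10).

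**Figure D2:**
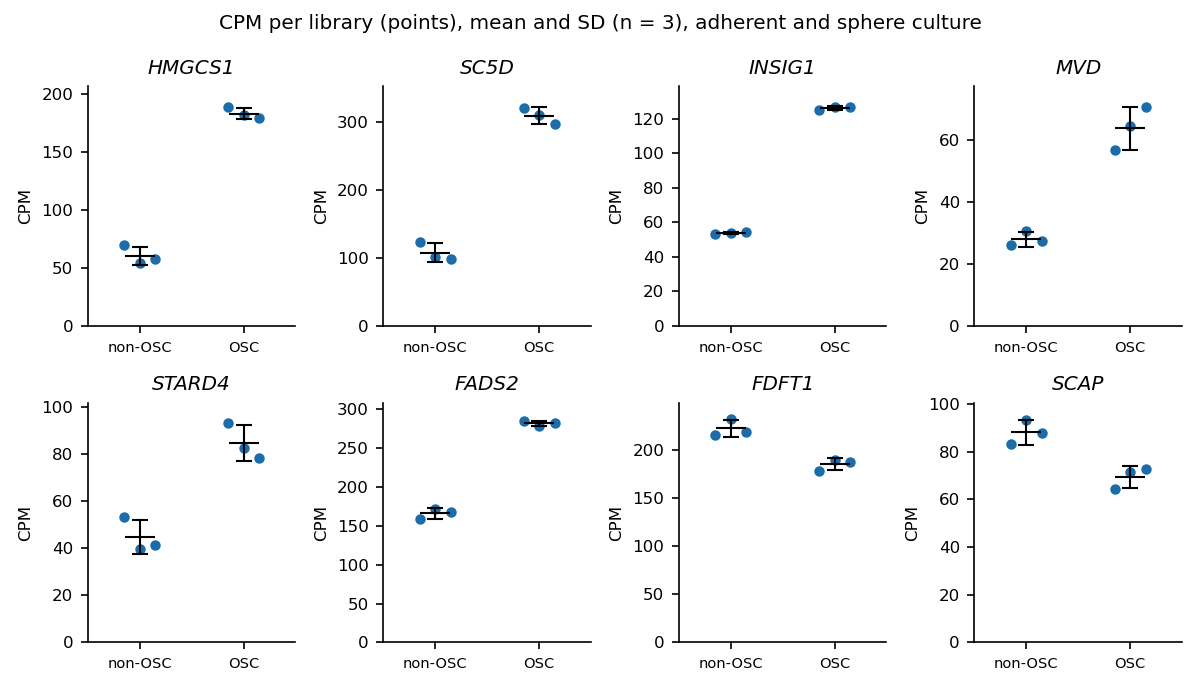
CPM (y axis, from 0) of 8 genes in each of the 3 non-OSC and 3 OSC libraries, with points for libraries and a bar for the mean ± SD. HMGCS1, SC5D, INSIG1, MVD, STARD4 and FADS2 are higher in every OSC library, and FDFT1 and SCAP are lower in every OSC library.

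Smaller rises were measured for the methylsterol oxidase MSMO1 (0.86), the isopentenyl diphosphate isomerase IDI1 (0.80), the squalene epoxidase SQLE (0.62), the lanosterol demethylase CYP51A1 (0.46) and the sterol ketoreductase HSD17B7 (0.44). The cytosolic thiolase ACAT2 (0.34), lanosterol synthase LSS (0.32), farnesyl diphosphate synthase FDPS (0.31) and DHCR7 (0.19), which performs a last reduction to cholesterol, rose by less. The rise of DHCR7 was lost without non-OSC library 3 (adjusted p = 0.0582, range over all alternatives 0.00181 to 0.0582). TM7SF2, a sterol reductase, had the largest fold change (2.06 ± 0.279) but the lowest level, 1.16 to 2.31 CPM in non-OSCs and 6.37 to 7.64 CPM in OSCs, or 12 to 21 and 53 to 63 counts per library.

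FDFT1, the squalene synthase that commits farnesyl diphosphate to sterols, was the only sterol enzyme that fell. It had 216, 233 and 219 CPM in non-OSCs and 178, 190 and 188 CPM in OSCs, with all OSC libraries below all non-OSC libraries (-0.26 ± 0.051, adjusted p = 0.00011). The mevalonate kinase MVK, the phosphomevalonate kinase PMVK, the dehydrogenase NSDHL and the isomerase EBP did not pass the test, with log2 fold changes between 0.01 and 0.23. NSDHL lay near the threshold (adjusted p = 0.0512 by edgeR) and passed as higher in 5 of 11 alternatives (range 0.0213 to 0.176), and EBP passed in 1. The rises were thus uneven over the pathway: of the consecutive enzymes FDPS and FDFT1, which hand on farnesyl diphosphate, one rose and the other fell.

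In the fatty acid arm FADS2 and FADS1 had the largest fold changes. FADS2, the desaturase that begins the conversion of essential fatty acids, had 159, 171 and 167 CPM in non-OSCs and 285, 278 and 282 CPM in OSCs, without overlap (0.76 ± 0.049, adjusted p = 8.49e-12). FADS1, a second desaturase of that route, rose by 0.56 and ELOVL6, an elongase of saturated fatty acids, by 0.52. ACSS2, which makes acetyl-CoA from acetate, also rose by 0.52. The fatty acid synthase FASN (0.21) and the acetyl-CoA carboxylase ACACA (0.19) rose by less. SCD, the stearoyl-CoA desaturase, had 1346, 1305 and 1313 CPM in non-OSCs and 1283, 1252 and 1243 CPM in OSCs, which did not overlap, and did not pass the test (-0.07, adjusted p = 0.0871, range over all alternatives 0.0114 to 0.406), nor did ACLY, the ATP citrate lyase that supplies cytosolic acetyl-CoA.

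Per kilobase of the canonical transcript, SCD and FASN had the highest levels of all 31 genes in every condition. In OSCs SCD had 240 and FASN 142 CPM per kb, followed by FDFT1 and FADS2 with 91.1 each, and TM7SF2 had the lowest with 4.31. In non-OSCs FDFT1 ranked directly after them with 109 CPM per kb. HMGCS1 stood at 11.2 CPM per kb in non-OSCs and 34.2 in OSCs.

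A list of 45 other genes of lipid metabolism, of which 44 could be tested, had 17 genes higher and 12 lower in OSCs, shares near the 32.4% and 31.5% of all genes tested, and a median log2 fold change of 0.00. The largest rises were those of INSIG2 (2.26), the second INSIG protein, PLIN2 (2.07), which coats lipid droplets, and ABCG1 (1.56), a sterol exporter controlled by LXR. INSIG2 had 16.1, 17.5 and 18.5 CPM in non-OSCs and 91.3, 77.5 and 81.2 CPM in OSCs, so both INSIG genes were higher in every OSC library. The largest falls were those of PDSS1 (-1.05) and COQ2 (-0.997), which use isoprenoids to make ubiquinone.

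The hairpins were then compared with shCtrl, to ask which of these genes changed with each hairpin. With shPDK1#1, 2 of the 31 genes rose (INSIG1 and DHCR7), 1 fell (ACACA) and 28 did not pass the test, against 1.62% and 1.44% of 14574 genes tested that rose and fell. With shPDK1#2, 15 rose, 3 fell (INSIG1, ACACA and ELOVL6) and 13 did not pass, against 12.0% and 14.2% of genes. Of the 18 sterol synthesis genes 10 rose and 0 fell with shPDK1#2 (also 0 at an unadjusted p under 0.05, and by DESeq2), and of the 8 fatty acid synthesis genes 3 rose and 2 fell. The hairpins share the shCtrl libraries, so their fold changes against shCtrl are not independent of each other.

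The sizes were small. The median log2 fold change of the sterol arm was 0.10 with shPDK1#1 and 0.19 with shPDK1#2, and that of the fatty acid arm was -0.02 and 0.08, beside medians over all genes of 0.00 and 0.01. No member changed by more than 0.25 with shPDK1#1 or 0.51 with shPDK1#2. The 28 genes that did not pass with shPDK1#1 had log2 fold changes between -0.22 and 0.19.

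**Figure D3:**
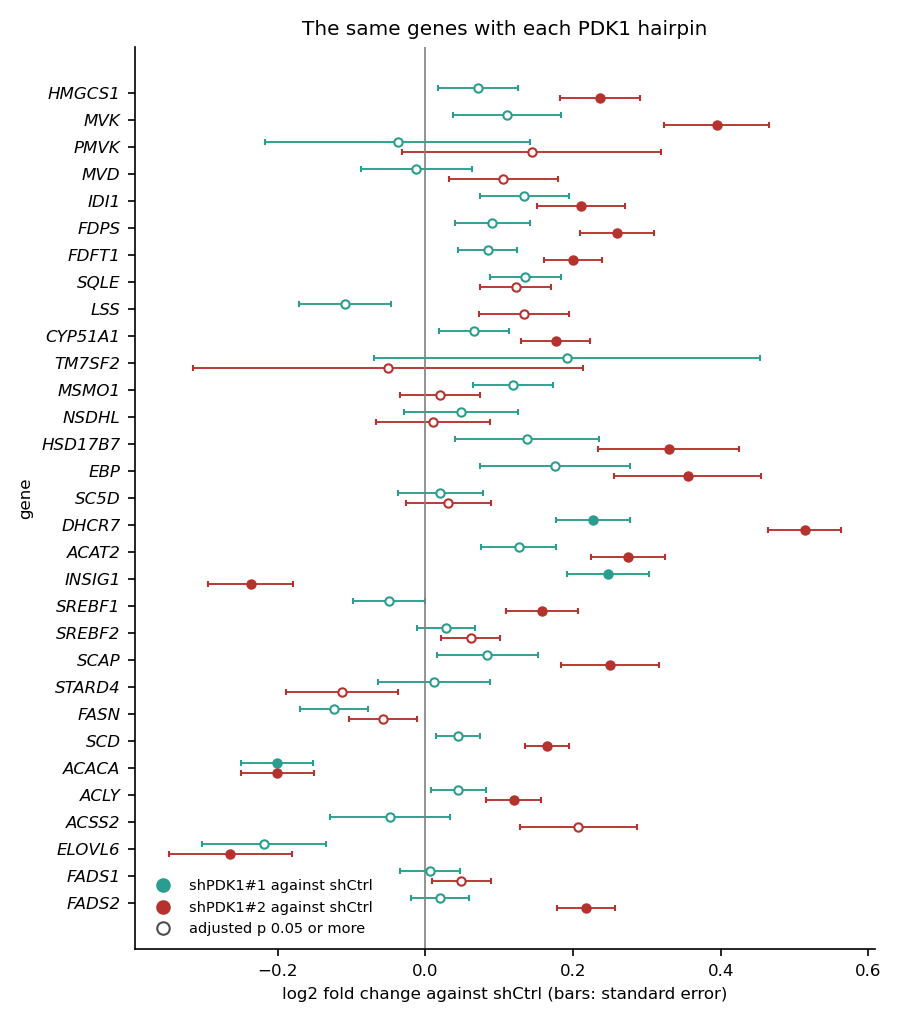
Log2 fold change of each of the 31 genes against shCtrl (x axis, log2 units) with shPDK1#1 (green) and shPDK1#2 (red), with bars for the standard error and open points where the adjusted p was 0.05 or more. DHCR7 lies furthest right with shPDK1#2 (0.51), INSIG1 lies on opposite sides of 0 with the hairpins (0.25 and -0.24), and ACACA lies at -0.20 with each.

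Among the regulators, INSIG1 was the only gene that changed with both hairpins in opposite directions. It had 108, 108 and 105 CPM in shCtrl, 124, 124 and 134 CPM in shPDK1#1, and 97.7, 85.3 and 89.5 CPM in shPDK1#2, and the libraries of the 3 conditions did not overlap. It rose with shPDK1#1 (0.25 ± 0.056, adjusted p = 0.0109) and fell with shPDK1#2 (-0.24 ± 0.057, adjusted p = 0.0029). The rise was lost when shCtrl library 3 or shPDK1#1 library 3 was left out, where the adjusted p reached 0.11 (range over all alternatives 0.00169 to 0.11).

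SCAP had 73.3, 64.5 and 70.7 CPM in shCtrl, 66.5, 79.0 and 74.7 CPM in shPDK1#1 and 80.5, 84.3 and 83.0 CPM in shPDK1#2, above all shCtrl libraries with the latter only (0.25 ± 0.067, adjusted p = 0.00634). SREBF1 had 411, 387 and 407 CPM in shCtrl, 361, 417 and 386 CPM in shPDK1#1 and 423, 478 and 444 CPM in shPDK1#2, again apart from shCtrl with shPDK1#2 only (0.16 ± 0.048, adjusted p = 0.0162). Each of these rises was lost in at least 1 fit that left out a library: that of SCAP without shCtrl library 2, and that of SREBF1 without shCtrl library 2 or shPDK1#2 library 2.

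SREBF2 had 403, 397 and 394 CPM in shCtrl, 393, 417 and 407 CPM in shPDK1#1 and 417, 433 and 396 CPM in shPDK1#2. STARD4 had 62.1, 68.5 and 60.6 CPM in shCtrl, 70.4, 59.5 and 63.8 CPM in shPDK1#1 and 56.6, 55.4 and 65.2 CPM in shPDK1#2. Neither gene passed the test with either hairpin, and their libraries overlapped between all conditions.

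Of the sterol synthesis enzymes, DHCR7 changed most. It had 160, 148 and 162 CPM in shCtrl, 175, 193 and 182 CPM in shPDK1#1, and 214, 229 and 228 CPM in shPDK1#2. The 3 conditions did not overlap, and shPDK1#2 had the highest level (0.23 ± 0.050, adjusted p = 0.00827 with shPDK1#1, and 0.51 ± 0.049, adjusted p = 9.56e-09 with shPDK1#2). The hairpin shPDK1#2 also left the least PDK1 mRNA, and whether the level of DHCR7 is linked to that of PDK1 was not tested. Without shCtrl library 2 the adjusted p with shPDK1#1 was 0.0958 (range over all alternatives 0.000698 to 0.0958).

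MVK, the mevalonate kinase, had 47.8, 45.0 and 42.7 CPM in shCtrl, 45.6, 51.7 and 48.9 CPM in shPDK1#1 and 58.9, 61.2 and 58.2 CPM in shPDK1#2. The shPDK1#2 libraries were all above the rest, and the other conditions overlapped (0.39 ± 0.071, adjusted p = 0.000129 with shPDK1#2). EBP, the sterol isomerase, had 17.7, 18.4 and 17.0 CPM in shCtrl, 20.5, 18.5 and 20.9 CPM in shPDK1#1 and 22.8, 22.9 and 22.3 CPM in shPDK1#2 (0.36 ± 0.099, adjusted p = 0.00874 with shPDK1#2).

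HSD17B7, the ketoreductase, had 19.95, 24.8 and 21.5 CPM in shCtrl, 24.3, 23.6 and 25.2 CPM in shPDK1#1 and 27.7, 28.3 and 27.5 CPM in shPDK1#2 (0.33 ± 0.095, adjusted p = 0.0112 with shPDK1#2). That rise was lost without shCtrl library 1 (adjusted p = 0.0818, range over all alternatives 0.00433 to 0.0818). ACAT2, the thiolase that feeds HMGCS1, had 138, 137 and 143 CPM in shCtrl, 160, 153 and 145 CPM in shPDK1#1 and 177, 167 and 161 CPM in shPDK1#2 (0.27 ± 0.050, adjusted p = 0.000152 with shPDK1#2). For EBP, HSD17B7 and ACAT2 every shPDK1#2 library lay above every other library of this table.

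FDPS (0.26), HMGCS1 (0.24), IDI1 (0.21), FDFT1 (0.20) and CYP51A1 (0.18) also rose with shPDK1#2, the rises of IDI1 and CYP51A1 each being lost when 1 library was left out. PMVK, MVD, SQLE, LSS, TM7SF2, MSMO1, NSDHL and SC5D did not pass the test, with log2 fold changes between -0.05 and 0.14. SQLE lay near the threshold (adjusted p = 0.0616 by edgeR) and passed as higher in 5 of 15 alternatives (range 0.0215 to 0.276). SC5D, second only to HMGCS1 among the better measured genes in OSCs, had 178, 183 and 190 CPM in shCtrl and 196, 173 and 194 CPM in shPDK1#2, which overlapped.

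**Figure D4:**
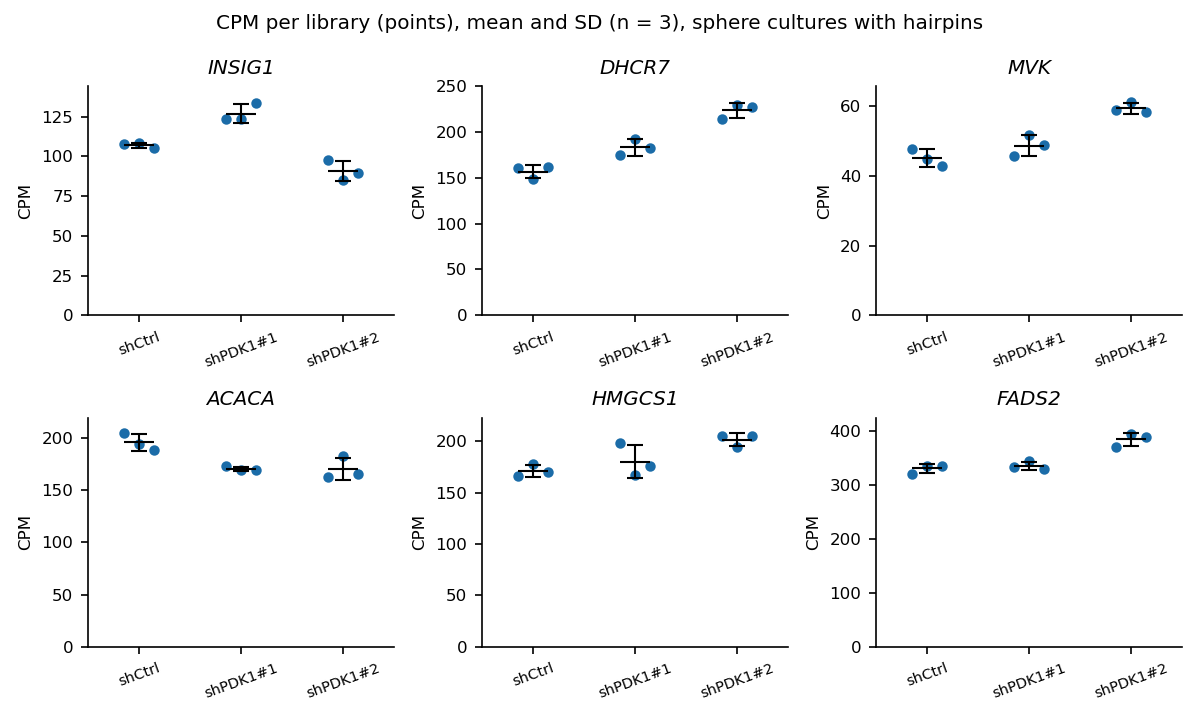
CPM (y axis, from 0) of 6 genes in each of the 3 shCtrl, shPDK1#1 and shPDK1#2 libraries, with points for libraries and a bar for the mean ± SD. DHCR7 has 3 separate groups, INSIG1 is highest with shPDK1#1 and lowest with shPDK1#2, ACACA is lower with each hairpin, and MVK, HMGCS1 and FADS2 have their highest mean with shPDK1#2.

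In the fatty acid arm the rate-limiting carboxylase ACACA fell with both hairpins. It had 205, 194 and 189 CPM in shCtrl, 173, 169 and 170 CPM in shPDK1#1, and 163, 183 and 166 CPM in shPDK1#2, so every knockdown library lay below every shCtrl library (-0.20 ± 0.049, adjusted p = 0.0198, and -0.20 ± 0.049, adjusted p = 0.00312). With shPDK1#1 the fall was lost without shCtrl library 1, shCtrl library 2 or shPDK1#1 library 3, where the adjusted p reached 0.161 (range over all alternatives 0.00467 to 0.161). ELOVL6 fell with shPDK1#2 (-0.26, adjusted p = 0.0200), a fall that was lost without shCtrl library 1 or shPDK1#2 library 2.

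FADS2 (0.22), SCD (0.16) and ACLY (0.12) rose with shPDK1#2, the rise of ACLY being lost in 3 of the fits that left out a library. FADS2 had 321, 334 and 336 CPM in shCtrl and 370, 394 and 389 CPM in shPDK1#2, without overlap (adjusted p = 0.000138). FASN, FADS1 and ACSS2 did not pass the test with shPDK1#2, with log2 fold changes between -0.06 and 0.21. The enzymes of the arm thus moved in both directions, the carboxylase and the elongase down, and the desaturases FADS2 and SCD and the lyase up.

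The hairpins were also compared with each other, which tests directly whether their effects differed. Of the 31 genes 11 were higher with shPDK1#2 than with shPDK1#1, 1 was lower (INSIG1) and 19 did not pass the test, against 6.50% and 9.78% of genes tested. INSIG1 had the largest difference (-0.48 ± 0.056, adjusted p = 5.89e-07). DHCR7 (0.29 ± 0.048, adjusted p = 9.98e-05) and MVK (0.28 ± 0.070, adjusted p = 0.00537) were higher with shPDK1#2, as were ACSS2 (0.26 ± 0.079, adjusted p = 0.0259) and LSS (0.24 ± 0.061, adjusted p = 0.00629).

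ACSS2 had 40.4, 39.6 and 36.7 CPM in shPDK1#1 and 43.2, 47.0 and 48.9 CPM in shPDK1#2, and LSS had 80.1, 86.3 and 75.7 CPM against 90.1, 100 and 95.8 CPM. Neither overlapped between the hairpins, although neither passed the test against shCtrl with either hairpin. Both also did not overlap between shPDK1#2 and shCtrl. There ACSS2 lay near the threshold (0.21, adjusted p = 0.054 by edgeR, range over all alternatives 0.0367 to 0.244), and LSS further from it (0.13, adjusted p = 0.111). The count of 12 genes that differed dropped to 6 without shPDK1#1 library 3, and ACSS2 and LSS were among those lost. Of the 18 sterol synthesis genes 7 were higher with shPDK1#2 and 0 lower, and of the 8 fatty acid synthesis genes 3 were higher and 0 lower (in both arms also 0 lower at an unadjusted p under 0.05, and by DESeq2).

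Of the 44 other lipid genes tested, 0 passed the test with shPDK1#1 (6 had an unadjusted p under 0.05 in edgeR, and 0 passed by DESeq2), and 8 rose and 10 fell with shPDK1#2, against 12.0% and 14.2% of all genes tested. The largest rises with shPDK1#2 were those of SCD5 (0.49), a second stearoyl-CoA desaturase, LIPA (0.37), the lysosomal acid lipase, and HADHB (0.31), of mitochondrial fatty acid oxidation. The largest falls were those of ABCG1 (-0.83), DGAT2 (-0.75), which makes triglycerides, and GGPS1 (-0.63), which makes geranylgeranyl diphosphate. Between the hairpins, SCD5 (0.44), LIPA (0.27) and HSD17B12 (0.27), of fatty acid elongation, were higher with shPDK1#2, and NPC1 (-0.45), which exports cholesterol from lysosomes, OSBP (-0.30), an oxysterol-binding transfer protein, and LPIN1 (-0.28), of glycerolipid synthesis, were lower. The difference of LIPA was lost without shPDK1#1 library 2 or shPDK1#2 library 3, and that of HSD17B12 without shPDK1#1 library 2 or shPDK1#2 library 1, where the adjusted p reached 0.127 and 0.0787. CD68, a lysosomal protein used as a macrophage marker, fell with shPDK1#2 (-0.83) while PTPRC and CD3E stayed near 0, and its part in these results was not tested.

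The arms were last set side by side over the 5 conditions, as the mean of log2(CPM + 0.5) over the genes of an arm. The sterol arm had 5.56 ± 0.019 in non-OSCs and 6.16 ± 0.018 in OSCs (SD, n = 3), and 6.12 ± 0.015 in shCtrl, 6.21 ± 0.040 in shPDK1#1 and 6.31 ± 0.021 in shPDK1#2. The fatty acid arm had 7.65 ± 0.026 in non-OSCs and 7.99 ± 0.015 in OSCs, and 8.17 ± 0.035 in shCtrl, 8.11 ± 0.026 in shPDK1#1 and 8.20 ± 0.014 in shPDK1#2. The tables were scaled separately, so levels are compared within a table only.

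**Figure D5:**
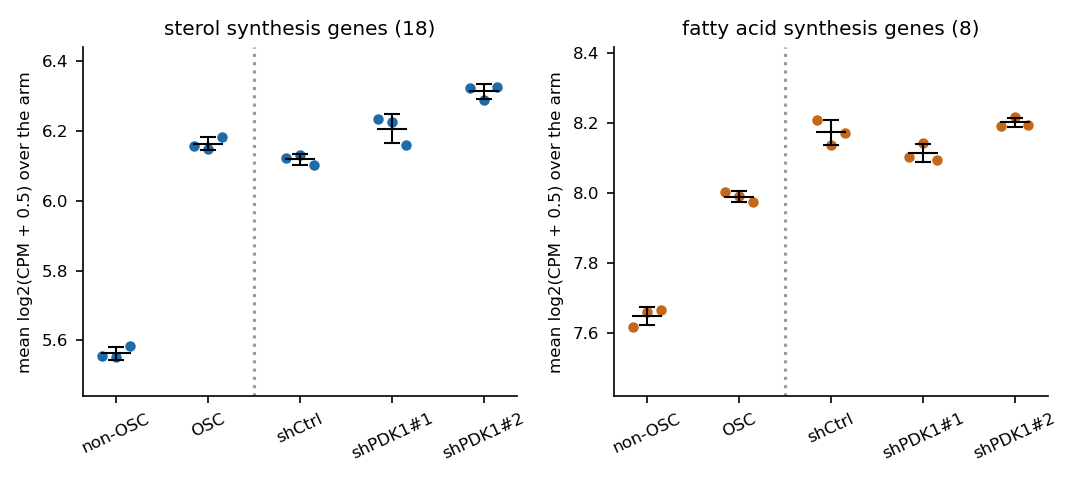
Mean log2(CPM + 0.5) over the 18 sterol synthesis genes (left) and the 8 fatty acid synthesis genes (right) in each library, with points for libraries and a bar for the mean ± SD. The y axes do not start at 0 and each spans 1 log2 unit, and the dotted line separates the 2 tables, which were scaled separately. Both arms are higher in OSCs than in non-OSCs, and with the hairpins the sterol arm is highest with shPDK1#2 while the fatty acid arm stays within 0.1 of shCtrl.

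Within a library, the sterol arm minus the fatty acid arm was -2.08 ± 0.022 in non-OSCs and -1.83 ± 0.031 in OSCs, and -2.05 ± 0.042 in shCtrl, -1.91 ± 0.034 in shPDK1#1 and -1.89 ± 0.035 in shPDK1#2. By these means the sterol arm stood higher relative to the fatty acid arm in OSCs than in non-OSCs and with either hairpin than with shCtrl, without overlap of libraries in each case. For OSCs the difference lay in the means, to which TM7SF2, HMGCS1 and SC5D contributed most, since the median log2 fold changes of the arms were close (0.39 and 0.37). As sums of CPM, which the abundant genes dominate, the sterol arm had 1284 ± 11.9 in non-OSCs and 1921 ± 12.6 in OSCs, and the fatty acid arm 3292 ± 64.2 and 3658 ± 34.5. The sums for the sterol arm were 1887 ± 19.4, 2012 ± 42.8 and 2172 ± 41.5 in shCtrl, shPDK1#1 and shPDK1#2, and for the fatty acid arm 4494 ± 57.8, 4409 ± 89.3 and 4709 ± 102.

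HMGCS1, SC5D, INSIG1, MVD and STARD4, which changed most in OSCs, were not among the 5 genes that changed most with shPDK1#2 (DHCR7, MVK, EBP, HSD17B7 and ACAT2), each among genes with a mean of at least 10 CPM. Still, HMGCS1 rose (0.24) and INSIG1 fell (-0.24) with shPDK1#2, while SC5D, MVD and STARD4 did not pass. Lists this short can share no gene by chance, and their overlap was not tested. The contrasts of OSCs with non-OSCs and of shPDK1#2 with shCtrl share no library. Over the 31 genes their log2 fold changes had a Pearson r of -0.33 and a Spearman rho of -0.32. Over the 18 sterol synthesis genes these were -0.53 and -0.47. They are descriptions over genes that share depth and are not independent, and the same values over all genes tested were not computed. Of the 31 genes 9 rose in both contrasts, and 11 rose in OSCs and did not pass with shPDK1#2. Of the 18 sterol synthesis genes 7 rose in both, and 0 rose in OSCs and fell with shPDK1#2. The shares of all genes tested with these joint calls were not computed, so the counts describe the members only. INSIG1, ACACA and ELOVL6 rose in OSCs and fell with shPDK1#2, and FDFT1 and SCAP fell in OSCs and rose with shPDK1#2. MVK, EBP, SCD and ACLY rose with shPDK1#2 and did not pass in OSCs.

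Some members share sequence with other annotated genes, which bears on how reads were divided. Of the 75-base stretches of CYP51A1, 90.0% also occur in other genes, chiefly overlapping readthrough entries, which themselves reached at most 1.81% of the level of CYP51A1 in any condition. For EBP the share was 54.0%, with a readthrough entry at up to 0.379% of its level, and for HSD17B7 28.1%, with the pseudogene HSD17B7P2 at 2.40% to 5.71%. The library kit that the labels name (NEBNext Ultra RNA) is not one that marks strand, so reads of opposite genes cannot be told apart where exons overlap. Such overlap covered 37.7% of the exon bases of HMGCS1, whose opposite gene had a mean of at most 0.100 CPM in every condition. It also covered 22.2% of ACAT2 (opposite SOD2 and TCP1), 18.6% of FDPS and 15% of IDI1. Levels of the genes opposite ACAT2, FDPS and IDI1 were not examined, so any part of their reads in these values was not tested.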

How the data were processed

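RNA-seq was performed on 15 libraries of 143B cells, 3 per condition, as paired-end reads. Per the labels and the study's methods, the authors used Trimmomatic 0.39 for trimming, FastQC 0.12.1 for quality checks and STAR 2.7.11a for alignment to GRCh38.p14. They deposited 2 tables of unscaled expected counts per gene, estimated by RSEM 1.3.3. The annotation and strand setting are not given in the sources used here; symbols were taken from GENCODE 44 by gene ID. Expected counts were rounded (6.85% and 6.92% of values were not whole), filtered with filterByExpr and scaled by TMM (factors 0.981 to 1.02) in edgeR 4.0.16 under R 4.3.3. Each table was fitted alone with glmQLFit and glmQLFTest, and Benjamini-Hochberg adjustment covered all genes tested. A prior count of 2 entered only the log2 CPM used to check whether replicate numbers pair the libraries. The 9 hairpin libraries shared 1 fit. The fits were tested on simulated counts. Totals of 7992499 to 11256536 counts per library limit precision for genes of a few CPM. Pseudocounts of 0.5 CPM were used for arm means only.

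Values in every library are given for the regulators and, per contrast, for the 5 members with the largest changes among those with an adjusted p under 0.05 and a mean of at least 10 CPM, and for the other lipid genes the 3 highest and 3 lowest log2 fold changes past the threshold. A gene that this rule names is not reported here. Values of FDFT1, TM7SF2, FADS2 and SCD, and of INSIG2, were added after they were seen, as were those of SC5D with the hairpins. The members and lists were chosen with earlier results of these data known. Samples were grouped by their titles. 0 value columns were left unmapped. Alternatives were DESeq2 1.42.0, scaling by library size alone, leaving out the filter, a minimum of 10 counts per library, a replicate block, fits of the compared groups only, and leaving out each library in turn.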

Additional observations from a re-analysis of the deposited data

Results flagged for a closer look

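For 12 of the 31 genes the effect of shPDK1#2 differed from that of shPDK1#1, by a direct test of one hairpin against the other in edgeR. Given as the log2 fold change with shPDK1#2 minus that with shPDK1#1, the differences were -0.48 for INSIG1, 0.12 for FDFT1, 0.12 for SCD, 0.15 for ACAT2, 0.16 for HMGCS1, 0.17 for FDPS, 0.20 for FADS2, 0.21 for SREBF1, 0.24 for LSS, 0.26 for ACSS2, 0.28 for MVK and 0.29 for DHCR7. INSIG1 was lower and the other 11 genes were higher with shPDK1#2. Of all 14574 genes tested, 6.50% were higher and 9.78% lower with shPDK1#2 than with shPDK1#1. Of the 12, 6 passed in every alternative and 6 were lost in at least 1 (HMGCS1, FDPS, FDFT1, LSS, ACAT2 and ACSS2). The level of PDK1 also differed between the hairpins, and whether it accounts for these differences was not tested.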

How the results depend on the processing

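No call of a member changed direction in any alternative. Of the calls, 23 of 25 in OSCs, 0 of 3 with shPDK1#1, 11 of 18 with shPDK1#2 and 6 of 12 between the hairpins passed in every alternative. Of the 124 pairs of member and contrast, 58 never passed the threshold, and 19 of these changed sign in some alternative. With library size alone the medians in OSCs were 0.42 for the sterol arm and 0.40 for the fatty acid arm, since that scaling moved the median over all genes from -0.01 to 0.03. Leaving out 1 library at a time gave medians in OSCs of 0.37 to 0.42 for the sterol arm and 0.34 to 0.39 for the fatty acid arm, and a sterol median of 0.17 to 0.22 with shPDK1#2. It gave 1 to 4 members called with shPDK1#1 (1 without shCtrl library 2 or shPDK1#1 library 3). Between the hairpins it gave 6 to 11 members called, and a fatty acid median of 0.054 to 0.097. Deviations of libraries with the same replicate number correlated between -0.05 and 0.09, which does not settle whether the numbers pair the libraries. In the OSC comparison these values were 0.07, -0.01 and 0.05, and those of other pairs lay between -0.08 and 0.02. The replicate block gave 27 members called in OSCs, 3 with shPDK1#1, 19 with shPDK1#2 and 12 between the hairpins. The block added NSDHL (higher) and SCD (lower, adjusted p = 0.0114 by edgeR) to the calls in OSCs and SQLE (higher) to those with shPDK1#2. Genes at a few CPM, such as TM7SF2, are limited by depth.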
